A study of Mus musculus with 3 samples.

Results

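The genes described here mark the neurons of the inner retina. The list held 36 symbols, set down by cell type: 14 for ganglion cells, 9 for bipolar cells, 11 for amacrine cells and 5 for horizontal cells. Isl1 stood under both ganglion and bipolar cells, and Calb1 and Pax6 under both amacrine and horizontal cells. A gene was taken as measured when a probe set carried its symbol and no other, and the probe set with the highest mean was used. That gave values for 32 of the 36, out of 22180 genes measured in all. Pou4f2 was matched by no probe set used here, and Pcp2, Gng13 and Slc6a9 were matched only by probe sets that carry a neighbouring gene's symbol too, so these 4 are not described. Of the 32, 31 had 1 probe set with no other symbol. Nefm, Pax6 and Lhx1 were also matched by a probe set that carries another gene's symbol too, which was not used.

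The samples were retinae of C57 mice, a laboratory strain, after injection of an agent into the vitreous, the gel that lies against the ganglion cell layer. The 3 groups were Cav1-shRNA, a short hairpin RNA named for caveolin-1, taken 2 days after injection, cavtratin, a cell-permeable peptide with the caveolin-1 scaffolding domain, taken 2 hr after injection, and AP, the labelled control, also taken at 2 hr. The labels do not spell out AP, and give neither age nor sex. Each group was 1 Affymetrix whole-transcript array of 5 to 6 pooled retinae, so no difference below has a replicate spread, a test or a p-value, and each compares 2 arrays and not the conditions. Cav1-shRNA differs from AP control in time as well as in agent, and these cannot be told apart. Cav1 itself was exactly tied at 8.26 in all 3 arrays, so the library labelled Cav1-shRNA shows no lower Cav1 value. Exact ties are common in the deposited values, and this one is not read as proof of an equal Cav1 level.

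Light signals leave photoreceptors through bipolar cells, which relay them to ganglion cells, whose axons form the optic nerve. Horizontal cells feed back onto photoreceptor terminals, and amacrine cells, most of them inhibitory, shape the signal where bipolar and ganglion cells meet. Each class is specified and kept by its own transcription factors and is known by its transmitter enzymes, vesicular transporters and calcium-binding proteins. In whole retina, fewer cells of a type and less RNA per cell cannot be told apart.

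Values are the deposited ones, read as log2 expression, and a difference is the first-named array minus the second. An expression floor of 6.50 was the median level of all probe sets with 1 symbol. In all 3 arrays 26 of the 32 genes lay at or above it, and the other 6, Pou4f3, Isl2, Opn4, Eomes, Onecut2 and Lhx1, lay below it in all 3, so no gene passed through 1 array alone. All 7 measured bipolar genes and all 10 measured amacrine genes were at or above the floor, as were 9 of 13 ganglion cell genes and 3 of 5 horizontal cell genes, of which Calb1 and Pax6 are not specific to horizontal cells. The horizontal cell label therefore rests on Onecut1 alone among its more specific genes above the floor.

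No inner retinal gene was 2-fold apart in any comparison, that is, by 1 on the log2 scale. The range over the 3 arrays was under 0.2 in 30 of the 32, and its largest value was 0.31, in Pou4f1. Of the 26 at or above the floor, 92.3% had a range under 0.2, against 90.4% of all genes at or above it, a share near the background. The median range was 0.095 over these 26 genes and 0.013 over all genes, many of them tied in all 3 arrays. Exactly equal values in all 3 arrays were found for 10 genes, Pou4f3, Nefm, Thy1, Eomes, Prkca, Slc32a1, Tfap2a, Chat, Pax6 and Onecut1. Of the 26 at or above the floor, 8 were tied in all 3 arrays, or 30.8%, against 43.2% of all 11510 genes at or above the floor in any array. Since ties are this common in the deposited values, a tie is not read as proof of an equal level.

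**Figure D1:**
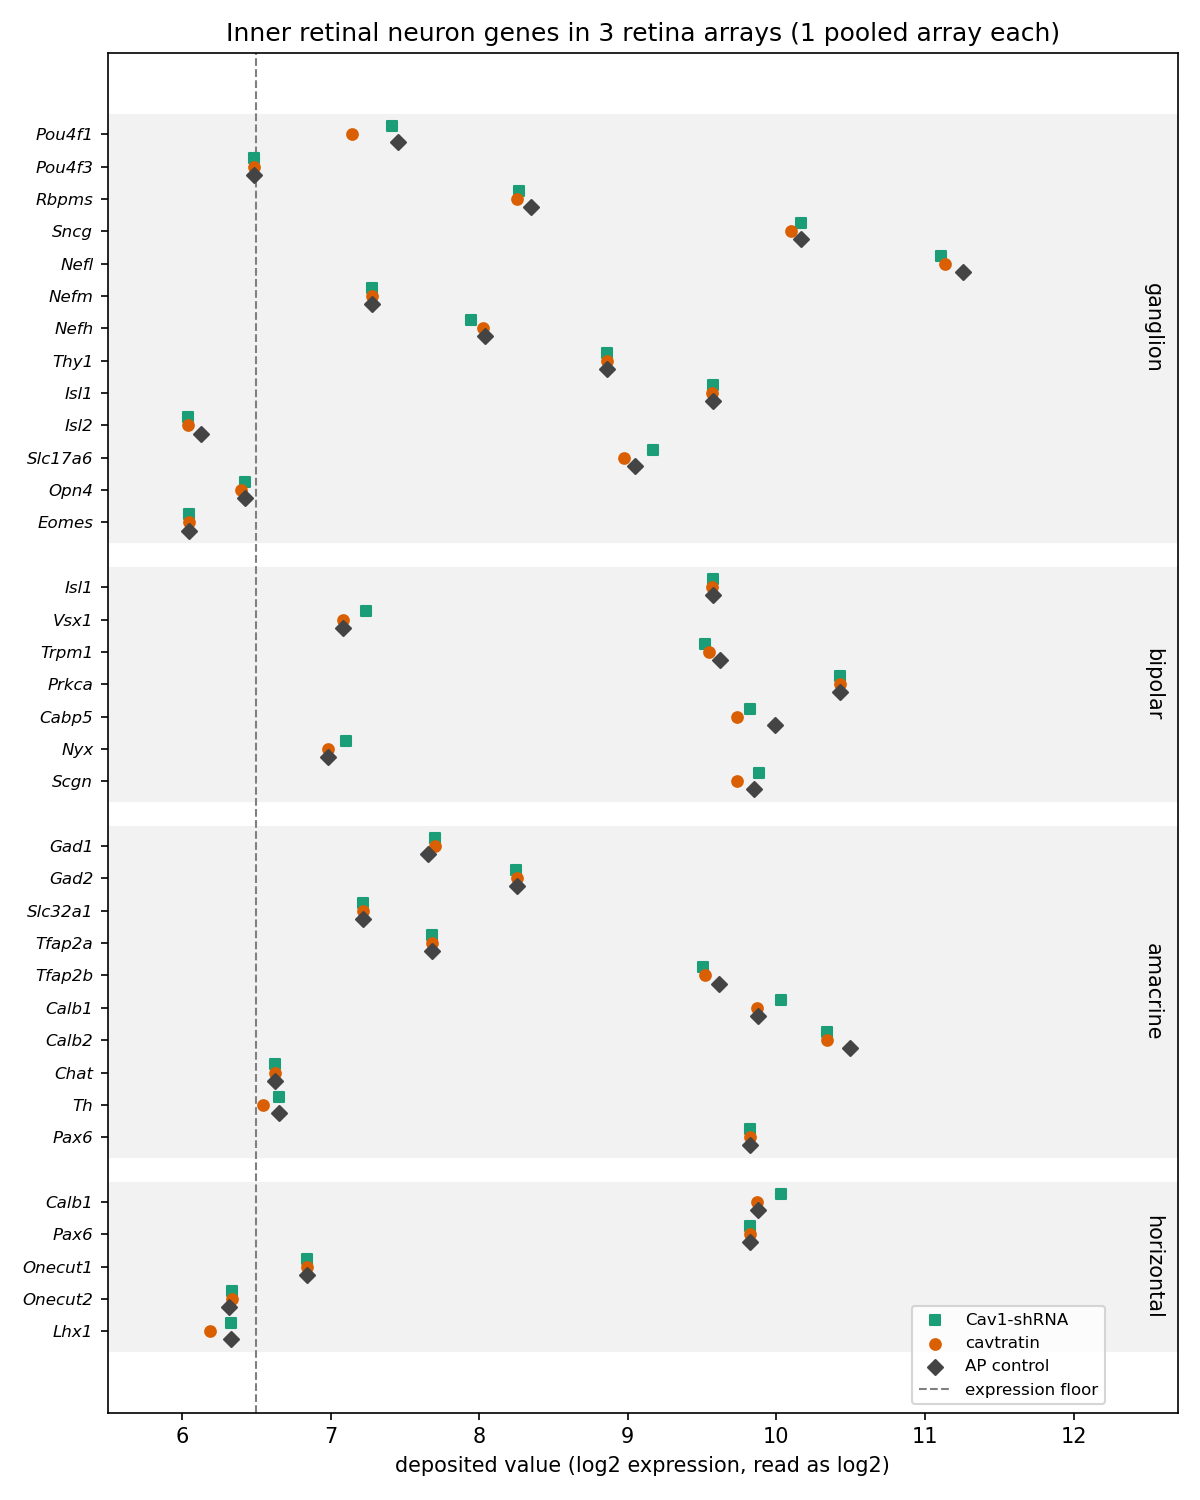
Deposited log2 values (horizontal axis) of the 32 measured genes, grouped by cell type, with Isl1, Calb1 and Pax6 drawn in both of their groups; squares are Cav1-shRNA, circles cavtratin and diamonds AP control, 1 pooled array each, and the dashed line is the floor of 6.50. The 3 points of most genes lie within 0.2 of each other, and the widest gap is that of Pou4f1, with cavtratin at 7.15 and AP control at 7.45.

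The cavtratin and AP control arrays were both taken at 2 hr. Among 26 genes that reached the floor, 14 were lower in cavtratin, or 53.8%, against a background of 25.9% of 11477 genes, and 1 was higher, against 19.6%. The other 11 were exactly equal, against 54.5%. The size of these differences was small: 2 of 26 were lower by at least 0.2 (background 1.79%) and 0 were higher by at least 0.2 (background 5.07%), and 0 were 2-fold apart (background 1.46%). Of the 18 genes at least 1 above the floor, 12 were lower, or 66.7%, against 28.0% of 8274 genes that high. The median was −0.0049 over the 26 genes and 0 over all genes. Centring, subtraction of a lowess trend and quantile normalization moved tied genes off 0 by construction, so their splits say nothing further of the tied genes. After centring, which added 0.0067 to every gene, 12 were lower and 14 higher (23.9% of all genes lower). Centring also turned Isl1, at −0.005, and Calb1, at −0.0048, from lower to higher. The lowess trend gave 14 lower and 12 higher (27.6% of all genes lower). Quantile normalization gave 24 lower and 1 higher (79.5% of all genes lower). Averaging a gene's probe sets left 25 genes at or above the floor, 14 lower and 1 higher (26.8% of all genes lower).

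Among ganglion cell genes, the largest difference in cavtratin against AP control was that of Pou4f1. This gene encodes Brn3a, a POU-domain transcription factor that ganglion cells need to differentiate and survive. Pou4f1 had 7.41 in Cav1-shRNA, 7.15 in cavtratin and 7.45 in AP control. Only the cavtratin value stood off, at −0.31 or 19.1% below AP control, while Cav1-shRNA was at −0.04. The promoter is printed because this gene had the largest difference of the list, and the capitals mark CAGCTG, an E-box of the kind bound by proneural bHLH factors, here with its first base 118 bases before the start site of the table's window (GRCm38.p6, RefSeq, chr14:104467950-104468249, minus strand). That start site lies 119 bases inside the outermost 5′ end of the gene (chr14:104461675-104468118), so the marked letters fall within the gene's annotated span.
Pou4f1: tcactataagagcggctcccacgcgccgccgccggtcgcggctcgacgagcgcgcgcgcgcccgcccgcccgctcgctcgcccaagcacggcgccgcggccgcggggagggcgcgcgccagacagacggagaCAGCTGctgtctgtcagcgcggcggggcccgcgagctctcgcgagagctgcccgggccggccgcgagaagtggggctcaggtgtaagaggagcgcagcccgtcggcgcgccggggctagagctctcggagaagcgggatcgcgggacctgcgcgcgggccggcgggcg

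Pou4f3, which encodes the paralogue Brn3c, was tied at 6.48 in all 3 arrays, just below the floor. Isl1, a LIM-homeodomain factor of ganglion cells, ON bipolar cells and cholinergic amacrine cells, had 9.57 in each array, with cavtratin lower by 0.005. Isl2, a LIM-homeodomain factor of a subset of ganglion cells, had 6.04 in both Cav1-shRNA and cavtratin and 6.13 in AP control. All 3 Isl2 values lay below the floor. Eomes, also called Tbr2, which melanopsin ganglion cells need, was tied at 6.05, and Opn4, melanopsin itself, had 6.43, 6.40 and 6.43 in Cav1-shRNA, cavtratin and AP control, both genes below the floor.

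Among structural and general ganglion cell markers, Nefl, the light neurofilament chain of large axons, had 11.11 in Cav1-shRNA, 11.14 in cavtratin and 11.25 in AP control. AP control was the highest array, with Cav1-shRNA at −0.15 and cavtratin at −0.12, which is 9.56% lower in Cav1-shRNA and 7.93% lower in cavtratin. Nefm, the medium chain, whose gene lies nearby on chromosome 14 (Nefl at chr14:68083863-68089095, Nefm at chr14:68119545-68125004, GRCm38.p6), was tied at 7.28 in all 3 arrays. Nefh, the heavy chain, had 7.94 in Cav1-shRNA, 8.02 in cavtratin and 8.04 in AP control. Nefl and Nefh thus shared an order of arrays, lowest in Cav1-shRNA and highest in AP control, though Nefh was lower mainly in Cav1-shRNA. The tie of Nefm is not read as proof of an equal level, and Nefm had another probe set, shared with a second symbol, that was not used.

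Rbpms, an RNA-binding protein found across ganglion cell types, had 8.27 in Cav1-shRNA, 8.25 in cavtratin and 8.35 in AP control, so both were below AP control, Cav1-shRNA by 5.48% and cavtratin by 6.20%. Sncg, gamma-synuclein, had 10.16, 10.10 and 10.17 in Cav1-shRNA, cavtratin and AP control, with only cavtratin set off, by −0.07. Thy1, a surface glycoprotein long used to label ganglion cells, was tied at 8.86. Slc17a6, the vesicular glutamate transporter VGLUT2 that loads ganglion cell synaptic vesicles, had 9.17 in Cav1-shRNA, 8.97 in cavtratin and 9.05 in AP control. It was one of the 3 genes that lay above AP control in Cav1-shRNA and below it in cavtratin, with differences of 0.12 in Cav1-shRNA and −0.08 in cavtratin. The others were Scgn and Calb1.

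Of the 9 ganglion cell genes at or above the floor, 7 were lower in cavtratin than in AP control, 0 were higher and 2 were tied, with a median of −0.07. Over all genes the shares were 25.9% lower, 19.6% higher and 54.5% tied. Over all 13 measured, including the 4 below the floor, the median was −0.026.

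Among bipolar cell genes the largest difference was that of Cabp5, a calcium-binding protein of rod bipolar cells and some cone bipolar cells. It had 9.82 in Cav1-shRNA, 9.73 in cavtratin and 9.99 in AP control. AP control was highest, with cavtratin at −0.26, or 16.5% lower, and Cav1-shRNA at −0.17, or 10.97% lower. Trpm1, the cation channel that opens in ON bipolar cells at light onset, had 9.52, 9.54 and 9.62 in Cav1-shRNA, cavtratin and AP control, so that it too was highest in AP control, by less. The promoters of this pair are printed because they were the bipolar genes below AP control in both other arrays. The capitals mark TAATCC, or GGATTA on the other strand, the core bound by the homeodomain factors Otx2 and Crx of bipolar cells and photoreceptors. The Cabp5 window is chr7:13397905-13398204, plus strand, with 2 matches that begin 160 and 41 bases before its start site. It is an internal start, 12195 bases inside the annotated gene (chr7:13385960-13408887). The Trpm1 window is chr7:64153585-64153884, plus strand, at the 5′ end of the gene, with 1 match that begins 34 bases before the start site (both GRCm38.p6, RefSeq).
Cabp5: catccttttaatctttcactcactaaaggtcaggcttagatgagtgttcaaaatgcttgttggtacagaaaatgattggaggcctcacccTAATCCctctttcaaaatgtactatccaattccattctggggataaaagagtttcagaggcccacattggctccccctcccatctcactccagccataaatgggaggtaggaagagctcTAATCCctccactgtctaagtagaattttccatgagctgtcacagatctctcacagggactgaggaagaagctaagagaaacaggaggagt
Trpm1: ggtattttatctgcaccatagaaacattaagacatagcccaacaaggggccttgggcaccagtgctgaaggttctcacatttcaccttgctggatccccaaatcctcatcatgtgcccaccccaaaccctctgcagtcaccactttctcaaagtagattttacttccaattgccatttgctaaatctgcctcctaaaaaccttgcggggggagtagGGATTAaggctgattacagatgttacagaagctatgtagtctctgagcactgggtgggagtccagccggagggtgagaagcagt

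Of the 36 listed genes, 27 had a promoter in the RefSeq table, each window being 300 bases around a start. TAATCC on either strand was found for 4 of the 27, namely Isl1, Trpm1, Cabp5 and Gad1, against 8.14% of 27025 genes and 7.06% of 32851 windows. By cell type it was found for 3 of 9 bipolar, 1 of 8 ganglion, 1 of 9 amacrine and 0 of 3 horizontal cell genes. Isl1 counts under both bipolar and ganglion cells. These counts are small, and no enrichment was tested. CAGCTG, which reads the same on both strands, was found for 4 of the 27, Pou4f1, Isl1, Vsx1 and Chat, against 18.3% of genes and 16.3% of windows. TAATTA, a homeodomain core that also reads the same on both strands, was found for 3 of the 27. These were Slc17a6, Pcp2 and Tfap2a, against 6.12% of genes and 5.29% of windows. These are matches of letters in a short window, and Isl1 carried both TAATCC and CAGCTG while its values differed by at most 0.005 between arrays.

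Prkca, protein kinase C alpha, the standard marker of rod bipolar cells, was tied at 10.43 in all 3 arrays. Scgn, secretagogin, a calcium sensor of cone bipolar cells, had 9.89 in Cav1-shRNA, 9.74 in cavtratin and 9.85 in AP control, with cavtratin lowest at −0.11. Vsx1, a homeodomain factor of cone bipolar cells, had 7.23 in Cav1-shRNA and 7.09 in both cavtratin and AP control. Nyx, nyctalopin, a leucine-rich repeat protein that places Trpm1 at the dendrite tips of ON bipolar cells, likewise had 7.10 in Cav1-shRNA and 6.98 in both others. Vsx1 and Nyx were therefore set off in Cav1-shRNA alone, by 0.15 and 0.12, and were tied at 2 hr. Of the 7 measured bipolar genes, 4 were lower in cavtratin than in AP control, 0 were higher and 3 were tied, beside the same shares of 25.9%, 19.6% and 54.5% over all genes, with a median of −0.005.

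Among amacrine cell genes, Calb2, the calcium-binding protein calretinin, which marks many amacrine and some ganglion cells, had 10.34 in both Cav1-shRNA and cavtratin and 10.50 in AP control. AP control alone stood off, with the others 10.2% lower. Tfap2b, an AP-2 transcription factor of amacrine and horizontal cells, had 9.51 in Cav1-shRNA, 9.52 in cavtratin and 9.61 in AP control, and its paralogue Tfap2a was tied at 7.68. Th, tyrosine hydroxylase, which makes the dopamine of a sparse amacrine type, had 6.65, 6.54 and 6.65 in Cav1-shRNA, cavtratin and AP control, close to the floor and set off in cavtratin alone.

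Gad1, which makes GABA, had 7.70 in Cav1-shRNA and cavtratin and 7.65 in AP control, and was the 1 gene at or above the floor that was higher in cavtratin. Gad2, the second GABA-making enzyme, had 8.24 in Cav1-shRNA and 8.25 in both cavtratin and AP control. Slc32a1, the vesicular transporter for GABA and glycine, was tied at 7.22, and its second probe set was tied too, at 5.56. Chat, which makes the acetylcholine of starburst amacrine cells, was tied at 6.62, and Pax6, a paired-homeodomain factor kept in amacrine, ganglion and horizontal cells, at 9.82. In cavtratin against AP control 4 of the 10 amacrine genes were lower, 1 was higher and 5 were tied, with a median of 0. The share tied was near the 54.5% of all genes, of which 25.9% were lower and 19.6% higher.

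Of the horizontal cell genes, Calb1, the calcium-binding protein calbindin, had 10.03 in Cav1-shRNA, 9.87 in cavtratin and 9.88 in AP control. Cav1-shRNA was highest, at 0.16 or 11.4% above AP control, which was the largest positive difference of the list in that comparison. Onecut1, a transcription factor that horizontal cells need, was tied at 6.84. Its paralogue Onecut2 had 6.34 in both Cav1-shRNA and cavtratin and 6.31 in AP control, and Lhx1, a LIM-homeodomain factor that places horizontal cells in their layer, had 6.33, 6.19 and 6.33 in Cav1-shRNA, cavtratin and AP control, both genes below the floor. The median of the 5 in cavtratin against AP control was 0.

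**Figure D2:**
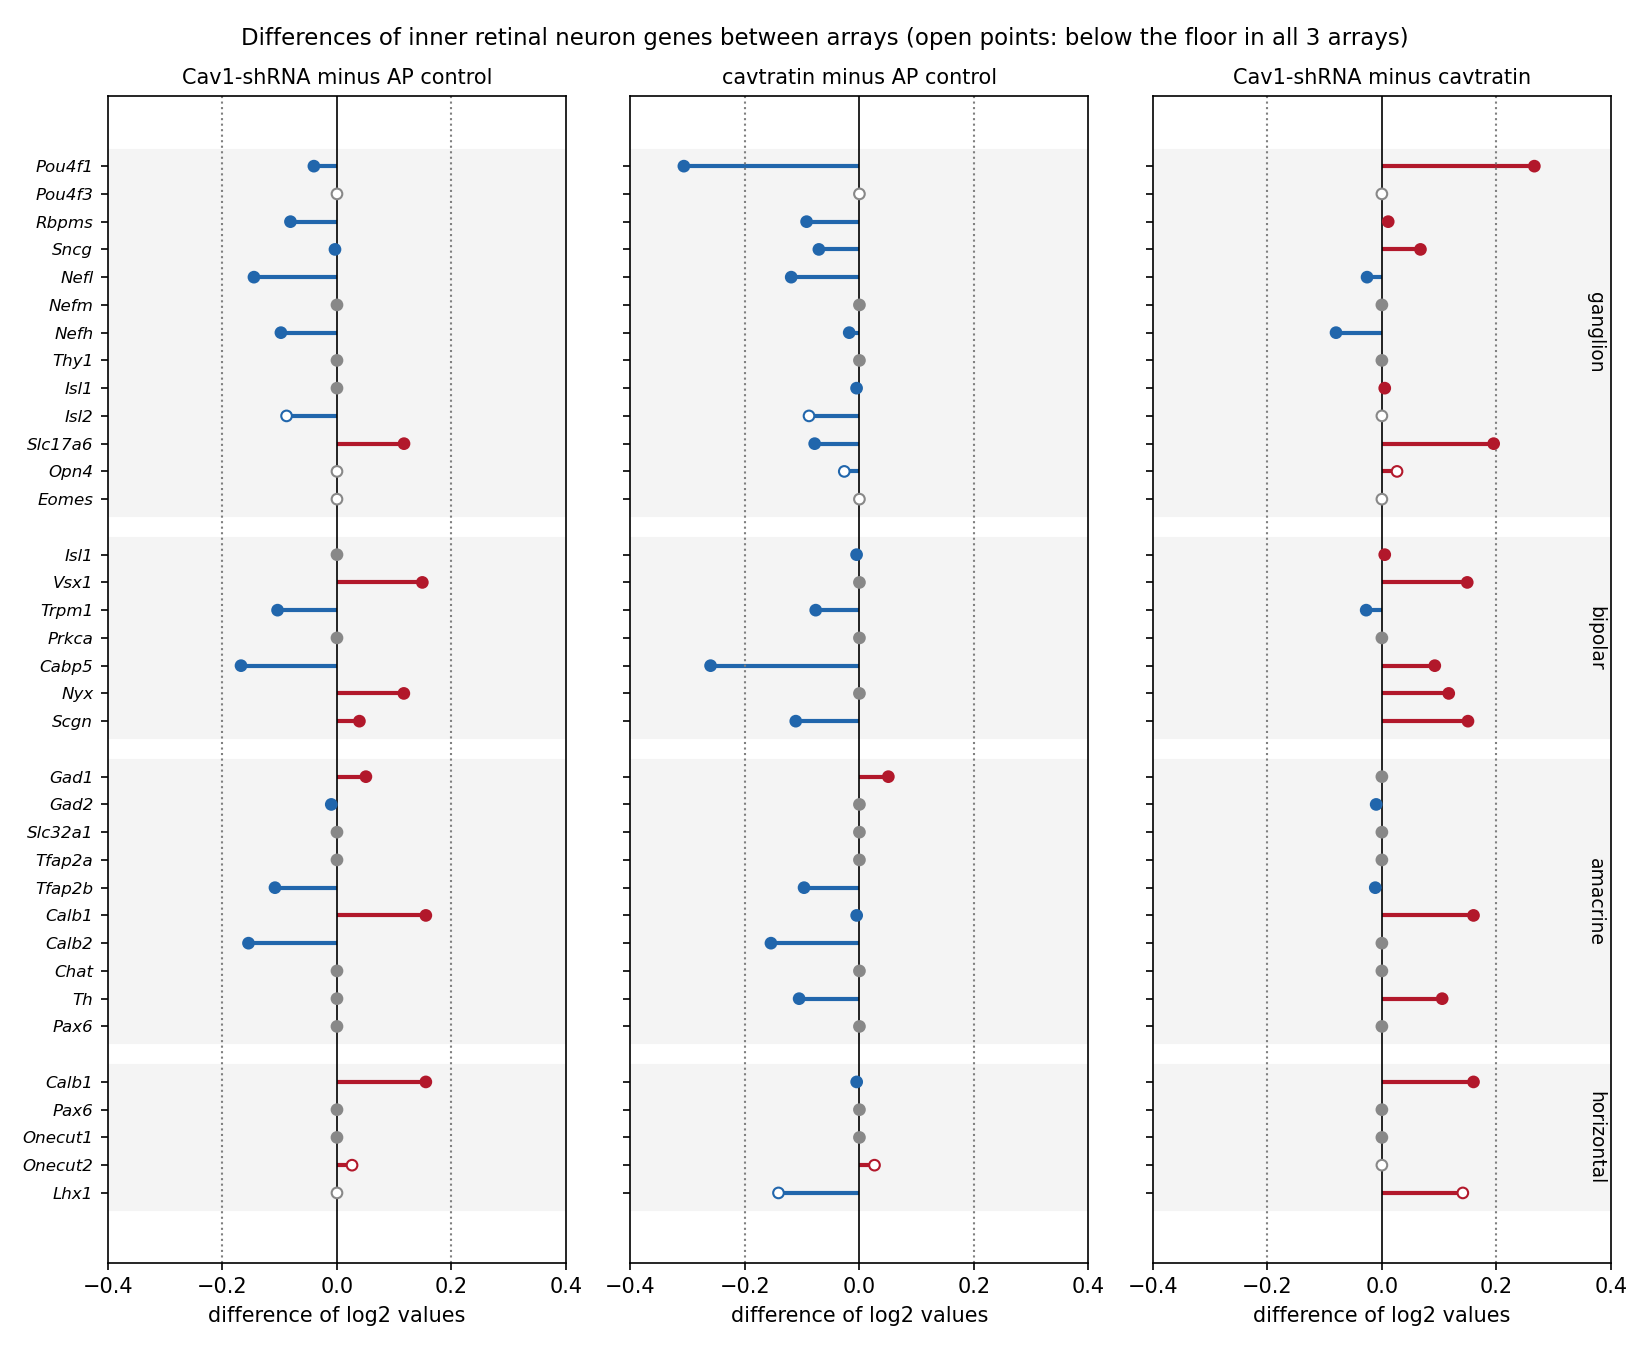
Difference of log2 values (horizontal axis) for each measured gene in Cav1-shRNA against AP control, cavtratin against AP control and Cav1-shRNA against cavtratin; blue is lower, red higher and grey exactly equal in the first-named array, open points lie below the floor in all 3 arrays, and dotted lines mark a difference of 0.2. Pou4f1 at −0.31 and Cabp5 at −0.26 pass the line in cavtratin against AP control, and Pou4f1 at 0.27 passes it in Cav1-shRNA against cavtratin.

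In Cav1-shRNA at 2 days against AP control at 2 hr, the genes at or above the floor went both ways. Of 26, 10 were lower, or 38.5%, against a background of 21.9% of 11433 genes, 6 were higher, or 23.1%, against 25.2%, and 10 were exactly equal, against 53.0%. None was apart by at least 0.2, against 6.16% of all genes, and 0 were 2-fold apart, against 0.464%. The largest differences were those of Cabp5 at −0.17, Calb2 at −0.15 and Nefl at −0.15 below AP control, and of Calb1 at 0.16, Vsx1 at 0.15 and Slc17a6 and Nyx at 0.12 above it. Medians were 0 over all measured ganglion, bipolar, amacrine and horizontal cell genes. Here too centring, quantile normalization and the lowess trend gave tied genes a sign by construction. After centring, which added 0.058 to every gene, 7 of 27 genes were lower and 20 higher, with 9.82% of all genes lower. Quantile normalization gave 8 lower and 19 higher of 27, with 17.1% of all genes lower, and the lowess trend 17 lower and 9 higher of 26, with 64.2% of all genes lower.

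The comparison of Cav1-shRNA with cavtratin does not use the AP control array. Of 26 genes, 5 were lower in Cav1-shRNA, or 19.2%, against a background of 19.4% of 11472 genes, and 11 were higher, or 42.3%, against 25.9%. The other 10 were exactly equal, against 54.7%. Pou4f1 was the 1 gene apart by at least 0.2, against 5.79% of all genes, and 0 were 2-fold apart, against 0.819%. After Pou4f1, at 0.27, came Slc17a6 at 0.20, Calb1 at 0.16, Scgn at 0.15 and Vsx1 at 0.15. Bipolar cell genes had a median of 0.09, with 5 of 7 higher in Cav1-shRNA and Trpm1 lower, at −0.03. Ganglion, amacrine and horizontal cell genes had medians of 0. Both comparisons with AP control share that array, and cavtratin enters 2 of the 3 comparisons, so they are not independent. Centring added 0.051 to every gene, which by construction turned ties and small negative values to higher ones, and left 1 of 27 genes lower and 26 higher, with 10.8% of all genes lower. Quantile normalization, which also moved the ties, gave 3 lower and 24 higher of 27, with 13.6% of all genes lower.

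**Figure D3:**
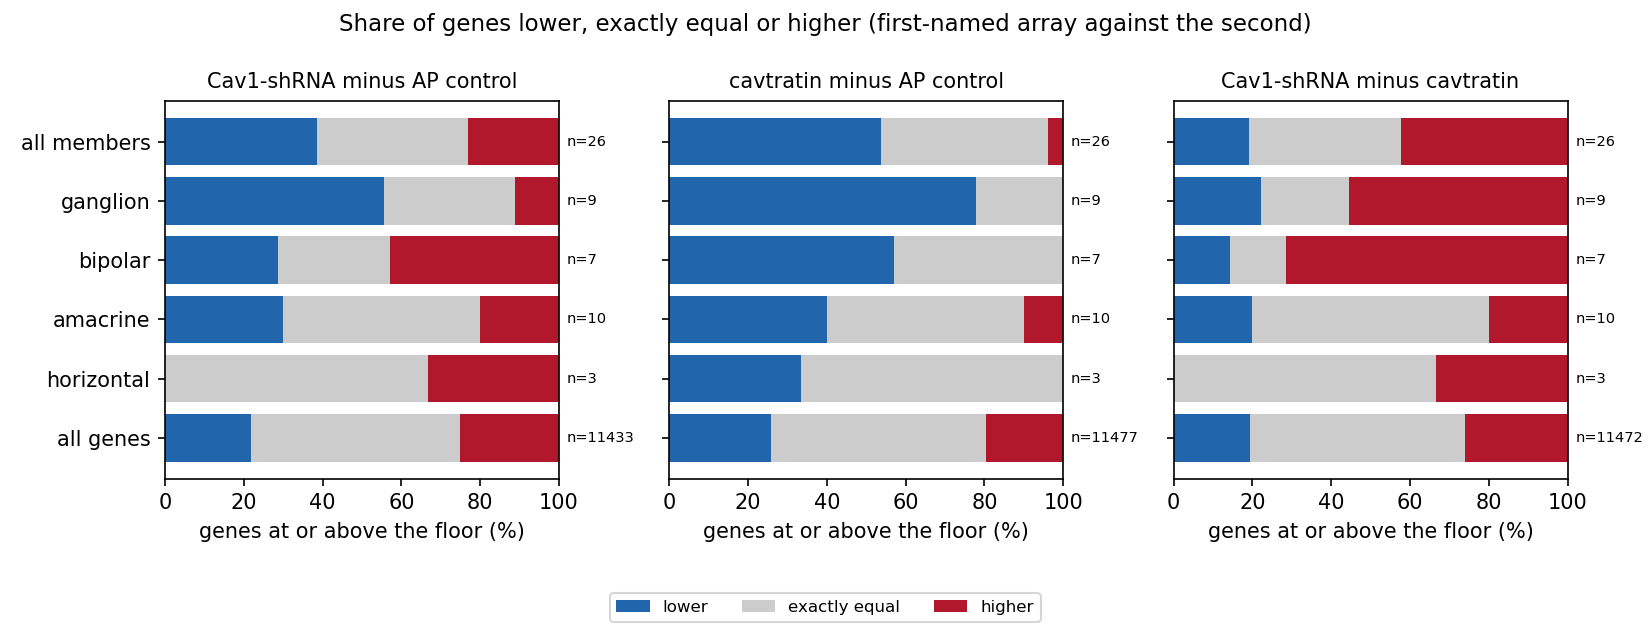
Share (%) of genes at or above the floor that were lower (blue), exactly equal (grey) or higher (red) in the first-named array, for all 26 genes, for each cell type and for all genes, with the number of genes at the right of each bar; genes listed under 2 cell types count in both. In cavtratin against AP control 53.8% of the inner retinal genes were lower, against 25.9% of all genes, while in Cav1-shRNA against cavtratin the shares lower were 19.2% and 19.4%.

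A wider set of inner retinal genes gave mostly small differences, though Sox4 and Penk, given below, had differences larger than any in the list. Of 89 further genes 83 were measured, and in cavtratin against AP control 38 of the 68 at or above the floor were lower, 10 higher and 20 equal, with a median of −0.017, beside 25.9% lower, 19.6% higher and 54.5% equal over all genes. Among them 19 ganglion cell genes had 14 lower and 2 higher, led by Uchl1, a neuronal ubiquitin hydrolase, at −0.29, and Chrna6, a nicotinic receptor subunit, at −0.18. The 23 bipolar genes had 12 lower and 1 higher, with Gpr179, a partner of the mGluR6 pathway in ON bipolar cells, at −0.22. Gpr179 had 8.71 in both Cav1-shRNA and cavtratin and 8.93 in AP control, so AP control alone stood off. The 19 amacrine genes were mixed, 8 lower and 6 higher, with Barhl2, a homeodomain factor, at −0.15 and Megf10, a receptor that spaces starburst amacrine cells, at 0.22. Barhl2 too was set off in AP control alone, with 8.56 in both Cav1-shRNA and cavtratin and 8.71 in AP control. Megf10 was above AP control in both other arrays, with 7.49 in Cav1-shRNA, 7.54 in cavtratin and 7.32 in AP control. The 7 genes listed for horizontal cells had 4 lower and 1 higher, and their specificity to these cells was not tested. The largest falls were those of Rxrg, a retinoid receptor, and Slc4a3, both at −0.09. Rxrg was close to the floor, with 6.76 in cavtratin and 6.85 in both Cav1-shRNA and AP control. Of the 68 further genes, 3 were apart by at least 0.2, against 6.86% of all genes.

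In Cav1-shRNA against AP control 30 of 69 of these further genes were lower, 16 higher and 23 equal, with a median of 0, beside 21.9% lower, 25.2% higher and 53.0% equal over all genes. Of the 69, 4 were apart by at least 0.2, against 6.16% of all genes. The largest differences were those of Sox4 at 0.42 and Gpr179 at −0.22, the latter as in cavtratin. The precursor of the opioid enkephalins, Penk, had 7.53 in Cav1-shRNA, 7.92 in cavtratin and 7.74 in AP control, and Npy, neuropeptide Y, had 9.12 in Cav1-shRNA, 8.997 in cavtratin and 8.90 in AP control. Penk was lowest and Npy highest in Cav1-shRNA. Sox4, a transcription factor of ganglion cell development, had 6.80 in Cav1-shRNA, 6.49 in cavtratin and 6.38 in AP control, and so reached the floor in Cav1-shRNA alone. In Cav1-shRNA against cavtratin 29 of 69 were higher, 8 lower and 32 equal, beside 25.9% higher, 19.4% lower and 54.7% equal over all genes. There 3 were apart by at least 0.2, against 5.79% of all genes, with Penk at −0.39 and Sox4 at 0.31.

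Photoreceptor genes, the outer retina's own, also had more lower than higher values in cavtratin. In cavtratin against AP control 6 of 10 rod genes were lower and 0 higher, with a median of −0.016. Cone genes had 7 of 10 lower and 0 higher, with a median of −0.051. Over all genes at or above the floor 25.9% were lower and 19.6% higher. In Cav1-shRNA against AP control rods had 4 lower and 3 higher and cones also 4 lower and 3 higher. Over all genes 21.9% were lower and 25.2% higher there. Muller glia genes went 6 lower and 4 higher of 14 in cavtratin, and 1 lower and 8 higher in Cav1-shRNA, against AP control. These stand beside the same shares of all genes.

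Genes listed as markers of other cells also differed between these arrays, though which cells their RNA came from was not tested. Of 18 lens genes, 10 of the 11 at or above the floor were higher in cavtratin than in AP control, beside 19.6% of all genes. With no floor 14 of the 18 were higher and 2 lower, beside 17.5% and 20.9% of all genes. The largest rises were those of Cryba1 at 3.08 and Cryaa at 2.83. Both lay above the floor in all 3 arrays. Cryba1 had 7.50 in Cav1-shRNA, 10.95 in cavtratin and 7.87 in AP control, and Cryaa had 8.96, 12.00 and 9.18. The 1 lower lens gene at or above the floor was Mip, at −0.06, with 6.76 in Cav1-shRNA, 6.74 in cavtratin and 6.80 in AP control. The summed linear level over all 18 was 2849 in Cav1-shRNA, 10951 in cavtratin and 2926 in AP control. Of 16 measured microglia and macrophage genes, 10 of 14 at or above the floor were higher in cavtratin and 13 of 14 in Cav1-shRNA. Over all genes 19.6% and 25.2% were higher. With no floor 11 and 15 of the 16 were higher, beside 17.5% and 22.4% of all genes. Their summed levels were 4860, 6377 and 3012 in Cav1-shRNA, cavtratin and AP control. Of 15 neutrophil and monocyte genes, 9 of 10 at or above the floor were higher in cavtratin and 7 of 7 in Cav1-shRNA. With no floor 11 and 13 of the 15 were higher, beside the same shares of all genes. In cavtratin 3 of the 15 were then lower and in Cav1-shRNA 1, beside 20.9% and 18.5% of all genes. A gene could enter a count with a floor through the array where it was high, so such counts lean to higher values. S100a8, for one, had 5.98 in AP control and 9.72 in cavtratin. Ly6c2 went the other way in cavtratin, with 8.08 in Cav1-shRNA, 6.16 in cavtratin and 6.59 in AP control. The summed levels of the 15 genes were 3656 in Cav1-shRNA, 5826 in cavtratin and 2792 in AP control. No marker was at 0; 7 of the lens genes, 2 of the microglia and macrophage genes and 5 of the neutrophil and monocyte genes lay below the floor in all 3 arrays. Summed over the 32 inner retinal genes the level was 15912 in Cav1-shRNA, 15528 in cavtratin and 16353 in AP control, a ratio to AP control of 0.973 in Cav1-shRNA and of 0.9495 in cavtratin. The part of the lens, microglia, macrophage, neutrophil and monocyte markers in the small inner retinal differences was not tested.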

How the data were processed

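The authors deposited 1 value per probe set and array, for 41345 probe sets on 3 arrays. The deposited values were read as log2 expression from their range. How they were summarised and normalized, and their log base, is not stated in the labels, and whether the exact ties come from them was not tested. The platform annotation gave 1 symbol to 23521 probe sets, and the one with the highest mean per gene left 22180 genes. Differences under 1e-09 were taken as 0. A gene entered a count when the higher of the 2 arrays reached the floor. With 1 array per group no test was run, and the number of arrays limits the precision. The counting was tested on simulated data.

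The members and lists were chosen with earlier results of these data known. Every member was named, and from each further list up to 2 genes with the largest difference in each direction. Alternatives were centring, quantile normalization, subtraction of a lowess trend (span 0.3), averaging a gene's probe sets, other floors and sizes, and the list mean. Work was done in Python 3.11.15 with numpy 2.4.6, pandas 2.3.3 and statsmodels 0.14.6. Promoters came from RefSeq, build GRCm38.p6.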

Additional observations from a re-analysis of the deposited data

How the results depend on the processing

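No paired analysis was possible because each group held 1 array. The 12 medians by cell type and comparison were recomputed under 78 alternatives in all, and none moved by more than 0.060, under the spread of 0.084 to 0.090 between 2 probe sets of one gene. That spread is within arrays and holds no difference between animals or pools. It is the spread of a single gene's difference and is larger than most of these medians, so staying under it was a weak check. The ganglion cell median in cavtratin against AP control went from −0.026 to −0.071 over genes at or above the floor. The medians lay between −0.071 and 0.14. The median of bipolar genes in cavtratin against AP control, −0.005, turned to 0.0018 after centring. Omission of Isl1 was added after the data were seen. The number of genes apart by at least 0.2 was 2 in cavtratin against AP control, and became 1 with the floor raised by 1, 6 at a size of 0.1 and 1 at 0.3. In Cav1-shRNA against AP control it was 0, and became 2 after centring and 9 at a size of 0.1. In Cav1-shRNA against cavtratin it was 1, and became 5 after centring, 3 after quantile normalization, 7 at a size of 0.1, and 0 at 0.3 or with the floor raised by 1. The cause was not tested beyond the construction of these settings.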

Other observations

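Some genes that injured ganglion cells are known to induce had larger differences between arrays than the inner retinal markers. Ecel1, a damage-induced neuronal endopeptidase, had 8.46 in Cav1-shRNA, 7.41 in cavtratin and 7.62 in AP control. Sprr1a, a small proline-rich protein made by regenerating neurons, had 8.03 in Cav1-shRNA, 7.06 in cavtratin and 7.53 in AP control. Both were highest in Cav1-shRNA and lowest in cavtratin, and Ecel1 was 1.06 higher in Cav1-shRNA than in cavtratin. Atf3, a stress-induced transcription factor, had 8.74 in Cav1-shRNA, 8.91 in cavtratin and 8.49 in AP control. Klf6, a zinc-finger factor of axon growth, had 9.60 in Cav1-shRNA, 9.78 in cavtratin and 9.31 in AP control, so Atf3 and Klf6 were highest in cavtratin. Of 10 genes of this list at or above the floor, 9 were higher and 1 lower in Cav1-shRNA than in AP control. Over all genes 25.2% were higher and 21.9% lower. The 1 lower gene was Gap43, with 7.37 in Cav1-shRNA, 7.38 in cavtratin and 7.45 in AP control. In cavtratin against AP control 6 were higher and 4 lower, beside 19.6% and 25.9% over all genes, and the median of the list was 0.045.

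Among genes of the retinal pigment epithelium, 4 of 8 at or above the floor were higher and 1 lower in cavtratin than in AP control. Over all genes 19.6% were higher and 25.9% lower. Rgr, an opsin of that epithelium and of Muller glia, had 9.30 in Cav1-shRNA, 9.70 in cavtratin and 9.49 in AP control.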
